A study of Homo sapiens with 30 samples.

Results

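RNA pulled down from the nuclear lamina of paraformaldehyde-fixed cells was compared with RNA of the cytosolic fraction of the same cell line, across every gene with enough counts. Of the series' 30 samples, 8 are RNA libraries and 4 of those enter the comparison: 2 PFA lamina libraries and 2 cytosolic libraries. Of 27630 genes in the count tables, 16504 had enough counts to be tested in the joint fit of the 8 libraries, which also holds 2 nuclear fraction and 2 native lamina libraries. All cells were asynchronous HEK293FT, a line derived from human embryonic kidney, and every group, the fractions included, carried a transfected construct of the peroxidase APEX2 joined to lamin B1. The PFA lamina group is the pull-down of APEX-labelled RNA after paraformaldehyde (PFA) fixation, and the cytosolic group is RNA of the cytosolic fraction. RNA was taken with Trizol and sequenced after ribosomal RNA depletion. The construct adds lamin B1 beyond the cell's own, and the libraries used here include none from untransfected or unlabelled cells. Nothing in the labels says that the replicates came from separate cultures, so p-values measure only the spread between these libraries, which may be technical.

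The nuclear lamina is a mesh of lamin A and lamin B proteins under the inner nuclear membrane, which is continuous with the endoplasmic reticulum. APEX2 is a peroxidase that, given biotin-phenol and hydrogen peroxide, tags molecules close to it, so a fusion to lamin B1 tags material near the lamina. A cytosolic fraction holds mature messenger RNA and is poor in RNAs that stay in the nucleus, such as MALAT1 and NEAT1.

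The 4 libraries held 7280956 and 5802728 counts (cytosolic replicates 1 and 2) and 5859026 and 2321291 counts (PFA replicates 1 and 2), so PFA replicate 2 was the shallowest. Levels below are CPM, counts scaled to the library's size with TMM factors, and a count of 3, taken as the floor, equals 0.401 to 1.10 CPM in these libraries. The HEK293 markers (NEFL, NEFM, INA, VIM, PAX2, LHX1, EYA1) were counted in each of the 4 libraries except PAX2 in cytosolic replicate 2, where it was at 0. Of 9 colon genes, which mark the series' other line HCT116, TFF3, KRT20, CDX1 and CEACAM5 were at 0 in the 4 libraries, while CDX2 had 100 to 313 counts, CDH1 14 to 41, EPCAM 7 to 21 and the other two 0 to 14. Among red cell and leukaemia genes, HBG1, HBG2 and HBE1 were at 0, TAL1 had 8 to 28 counts, and HBZ, GATA1, KLF1, ALAS2 and LYL1 0 to 6. Across genes, which are not independent replicates, log2 CPM of PFA replicate 1 correlated at 0.957 and 0.951 with the cytosolic libraries and at 0.911 with PFA replicate 2. PFA replicate 2 correlated at 0.894 and 0.892 with the cytosolic libraries and at 0.875 and 0.894 with the nuclear ones. With the native lamina libraries, PFA replicate 2 correlated at 0.951 and 0.942, its highest values, and PFA replicate 1 at 0.949 and 0.905. The PFA libraries are therefore given apart beside every pooled value.

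Against the cytosolic fraction, PFA lamina RNA was higher for LMNB1, ANKRD1, ARRDC3, 8 zinc finger genes and 2 host genes of small nucleolar RNAs, and lower for 4 heat shock genes, 3 glycolysis genes, 3 low-oxygen genes and the metallothionein MT1X. At an adjusted p under 0.05 (edgeR quasi-likelihood test, Benjamini-Hochberg), 87 genes (0.527% of 16504) were higher and 24 (0.145%) were lower. Their adjusted p-values lay between 0.0312 and 0.0492, close to the threshold, and their smallest log2 fold changes were 1.36 among the higher and -1.34 among the lower. At an unadjusted p under 0.05, 2135 genes were higher (12.9%) and 1421 lower (8.61%). The calls were lost when any of 3 single libraries was left out. Each such fit also has fewer libraries to estimate the spread from, and the part of that in the loss was not tested. Without cytosolic replicate 1, cytosolic replicate 2 or nuclear replicate 1, edgeR called 0 genes in either direction, with smallest adjusted p-values of 0.189, 0.197 and 0.0526. At an unadjusted p under 0.05 those fits still gave 1587, 1524 and 1880 higher and 1083, 775 and 1293 lower genes, and all 111 called genes kept their sign in each. Every gene named below as called in the pooled comparison lost its call in these 3 fits, and the DESeq2 Wald test on all 8 libraries called 551 higher and 449 lower. With DESeq2's size factors in edgeR, 35 of the 87 and 14 of the 24 were still called. Among genes described below, KIFC2, PCDH1, SMG1P2, SLC1A3, NEMP1, SNHG15, PVT1, ZNF76, ZNF398, ZNF594, ZNF550, NDRG1, HK1, SMS, S100A10, EEF1A1 and HNRNPA1P10 lost their call there, and EGLN3, DNAJB1, CDK1, SNORA53, HK1, ZNF594 and HNRNPA1P10 did with total counts. In a fit of only the 4 libraries compared, PLEKHM1P1, SMG1P2, FAM227A, NEMP1, PVT1, ZKSCAN4, ZNF23, ZNF76, ZNF398, ZNF550, ZNF594, HSPA8, DNAJB1, EGLN1, EGLN3, HK1, EEF1A1, SNORA53 and HNRNPA1P10 were not called.

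With each PFA library fitted by itself, the 2 differed in how many genes stood apart from the cytosolic fraction. PFA replicate 1 had 14 genes called higher (0.0848%) and 0 lower, with 978 lower (5.93%) at an unadjusted p under 0.05 by edgeR and 93 lower by the DESeq2 Wald test. PFA replicate 2 had 1743 called higher (10.6%) and 996 lower (6.03%). With total counts as the scaling the split for PFA replicate 2 became 2569 higher and 363 lower, with upper-quartile factors 2210 and 691, and upper-quartile factors gave 33 higher and 4 lower for PFA replicate 1. Each such test is of 1 library, assumed to vary like the other groups, and both share the cytosolic libraries. The 87 pooled higher genes had PFA replicate 1 log2 fold changes of 1.04 to 5.43 (median 1.73) and PFA replicate 2 log2 fold changes of 1.23 to 7.0 (median 2.31), beside all-gene medians of -0.00 and 0.07. The 24 lower genes ran from -3.13 to -1.17 in PFA replicate 1 (median -1.63) and from -4.20 to -1.30 in PFA replicate 2 (median -1.87). In PFA replicate 1, 13 of the 87 and 0 of the 24 were called, and in PFA replicate 2 all of both sets were. Since these libraries chose the sets, the ranges are a description.

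LMNB1, the gene of lamin B1 and of the transfected fusion, stood at 4197 and 6382 CPM in the cytosolic libraries and at 96237 and 81004 CPM in PFA replicates 1 and 2. It took 8.89% and 9.49% of all PFA counts. The difference was 4.07 on the log2 scale (SE 0.66, n = 2 and 2 libraries, edgeR adjusted p = 0.0362). It was called in each PFA library apart, at 4.19 and 3.94. The gene lies at chr5:126112315-126172712 in hg19 on the plus strand, and reads from the cell's own gene and from the construct cannot be told apart. The other lamin genes did not pass the test: LMNB2 was at 395 and 446 CPM in the cytosolic fraction and at 250.01 and 269 CPM in PFA lamina, and LMNA at 80.6 and 60.9 against 51.9 and 64.0 CPM.

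Of 22 tested lamin, inner nuclear membrane and LINC complex genes, 2 were called higher, LMNB1 and NEMP1, and none lower. NEMP1, an inner nuclear membrane protein, was at 86.4 and 79.9 CPM in the cytosolic fraction and at 242 and 216 CPM in PFA lamina, a log2 difference of 1.46 (SE 0.28, edgeR adjusted p = 0.0471). The median of the list was 0.46, against 0.08 for all genes tested. LBR, the lamin B receptor, had 97.3 and 115 against 193 and 146 CPM and did not pass (log2 difference 0.68). LEMD2 and SUN2, both inner nuclear membrane proteins, passed in PFA replicate 2 alone (1.00 and 1.36), where 5 of the 22 were higher and 1, BANF1, lower (-1.28). Of all genes tested, 10.6% were higher and 6.03% lower in PFA replicate 2. Of 31 nuclear pore genes, none was called in the pooled comparison, and their median was -0.11. It turned positive with total counts (0.09) and upper-quartile factors (0.00), which move all genes up, and relative to the all-gene median it was -0.19, -0.16 and -0.19.

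The 12 called genes of at least 300 exonic bases and 50 counts per PFA library with the largest increases were LMNB1, AMH, LOC648987, SEC31B, ANKRD1, DNAH17, PLEKHM1P1, KIFC2, PCDH1, SMG1P2, FAM227A and SLC1A3. PFA lamina was not tested against the nuclear fraction here. The nuclear libraries were above both PFA libraries for SEC31B (62.7 and 72.5 CPM) and FAM227A (45.8 and 33.8 CPM). They were below both for LMNB1, LOC648987, ANKRD1, DNAH17 and PCDH1, and overlapped the PFA libraries for the rest. ANKRD1, a YAP target that encodes a nuclear ankyrin repeat protein of muscle and other cells, was at 3.61 and 8.46 CPM in the cytosolic libraries and at 47.7 and 33.5 CPM in the PFA libraries. Its log2 difference was 2.80 (SE 0.49, edgeR adjusted p = 0.0385), and 3.48 without cytosolic replicate 2. It was the only one called of 14 tested YAP target genes, whose median was 0.61. SLC1A3, a glutamate transporter of the plasma membrane, was at 4.14 and 5.29 CPM in the cytosolic libraries and at 31.0 and 19.1 CPM in the PFA libraries. It was called in the pooled comparison (2.44, SE 0.49, edgeR adjusted p = 0.0471) and in each PFA library apart. PCDH1, a protocadherin, was at 4.55 and 2.96 against 20.9 and 23.9 CPM, nearly level between the PFA libraries. LOC648987, an uncharacterised non-coding locus, was at 4.68 and 8.46 against 71.0 and 39.0 CPM.

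For AMH, SEC31B, KIFC2, PLEKHM1P1 and FAM227A the higher level of the PFA libraries was that of replicate 2, though none of the 5 passed the direct test of PFA replicate 2 against replicate 1 (edgeR adjusted p from 0.0623 for SEC31B to 0.226 for PLEKHM1P1). AMH, the anti-Müllerian hormone of the gonads, was at 5.08 and 3.81 CPM in the cytosolic libraries, at 23.7 CPM in PFA replicate 1 and at 80.9 CPM in PFA replicate 2. Its log2 difference of 3.51 (SE 0.59, edgeR adjusted p = 0.0362) became 2.39 without PFA replicate 2 and 4.10 without PFA replicate 1. SEC31B, a COPII vesicle coat protein, stood at 2.67 and 4.65 against 13.1 and 45.6 CPM. Its log2 difference was 3.0 with both PFA libraries, 3.63 without PFA replicate 1, and 1.88, no longer called, without PFA replicate 2. KIFC2, a kinesin, was at 3.88 and 5.29 against 13.9 and 40.8 CPM. The log2 differences of KIFC2 (2.56), of the pseudogene PLEKHM1P1 (2.60) and of FAM227A (2.51) fell to 1.61, 1.96 and 1.78 without PFA replicate 2, and none of the 3 was then called. DNAH17, a dynein heavy chain of cilia, was at 7.62 and 4.02 against 31.0 and 49.3 CPM. The pseudogene SMG1P2, which shares sequence with SMG1 copies, was at 2.14 and 4.86 against 14.6 and 25.4 CPM, and its log2 difference of 2.54 was 3.18 without cytosolic replicate 2.

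**Figure D1:**
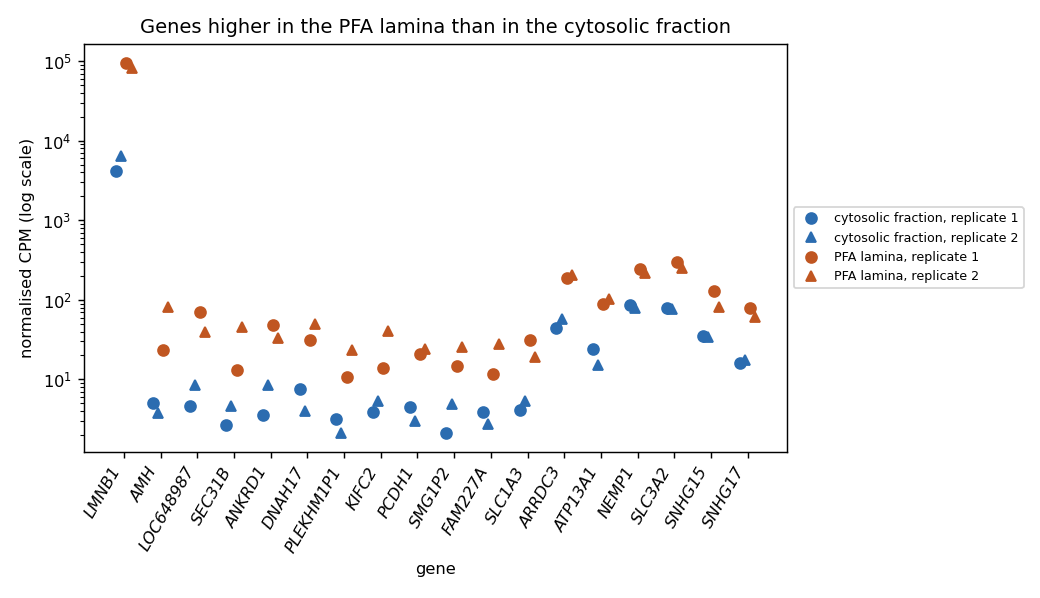
Normalised CPM on a log axis for 18 genes called higher in PFA lamina, 1 point per library (blue cytosolic, orange PFA, circles replicate 1, triangles replicate 2). Every PFA point lies above both cytosolic points of its gene; AMH and SEC31B show the widest gaps between the PFA libraries, and ARRDC3 and ATP13A1 narrow ones.

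A second set of higher genes was close to level between the PFA libraries. ARRDC3, an alpha-arrestin that leads receptors to ubiquitination, was at 44.1 and 57.1 CPM in the cytosolic libraries and at 186 and 207 CPM in the PFA libraries. Its log2 difference was 1.96 (SE 0.30, edgeR adjusted p = 0.0312), with 1.88 and 2.03 in the PFA libraries apart. SLC3A2, the heavy chain of amino acid transporters, was at 79.8 and 76.3 against 303 and 249 CPM (1.82, SE 0.30, edgeR adjusted p = 0.0362), and was 1 called of 13 tested amino acid and integrated stress response genes. RASSF1, a tumour suppressor that binds microtubules, was at 17.5 and 23.7 against 70.6 and 74.7 CPM. ATP13A1, a transporter of the endoplasmic reticulum membrane, was named after its values were seen. It was at 23.8 and 15.0 against 89.2 and 103 CPM, a log2 difference of 2.3 (SE 0.33, edgeR adjusted p = 0.0312). Its nuclear levels were 93.8 and 96.7 CPM, while those of ARRDC3, SLC3A2 and RASSF1 lay below both PFA libraries.

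Other called genes that encode membrane proteins were also named after their values were seen. NCAM1, a cell adhesion molecule, was at 8.82 and 15.0 CPM in the cytosolic libraries and at 38.4 and 33.8 CPM in the PFA libraries. LRP4, a receptor of the LDL family, was at 19.7 and 31.3 against 58.4 and 94.2 CPM. ERN1, the stress sensor of the endoplasmic reticulum, was at 7.22 and 7.4 against 18.8 and 29.1 CPM. None of the 33 tested endoplasmic reticulum chaperone, translocon and glycosylation genes was called, and their median was 0.18 in the pooled comparison, 0.44 in PFA replicate 1 and -0.12 in PFA replicate 2. The last value turned positive with total counts (0.21) and with upper-quartile factors (0.06), which raise the all-gene median from 0.07 to 0.41 and 0.25, and relative to all genes it was -0.18, -0.20 and -0.19. EPHA2, an ephrin receptor, was at 6.55 and 12.7 against 27.9 and 38.6 CPM. In the nuclear fraction NCAM1 was at 55.6 and 40.0 CPM, above both PFA libraries. LRP4 (90.7 and 100 CPM), ERN1 (17.6 and 20.6 CPM) and EPHA2 (25.1 and 29.6 CPM) overlapped the PFA libraries there.

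Among long non-coding RNAs, 2 of 22 tested small nucleolar RNA host genes were called higher and none lower. SNHG17 was at 16.0 and 17.6 CPM in the cytosolic fraction and at 79.8 and 60.3 CPM in PFA lamina, a log2 difference of 2.07 (SE 0.30, edgeR adjusted p = 0.0312). SNHG15 was at 35.4 and 34.3 against 129 and 81.7 CPM (1.60, SE 0.33, edgeR adjusted p = 0.0471). The median of the list was 0.34. PVT1, a long RNA beside MYC, was at 3.74 and 5.92 against 21.1 and 17.7 CPM. By RefSeq gene type, 9 of the 87 higher genes were long non-coding RNAs (10.3%, against 9.11% of all tested) and 10 were pseudogenes (11.5%, against 2.82%). By whole gene spans, introns included, 40 of the 84 higher genes placed on 1 chromosome overlap another annotated gene and 8 overlap another called gene. The other 3, among them MSH5 and MSH5-SAPCD1, were not examined for overlap. The share of all tested genes with such an overlap was not computed. Strand was ignored and shared reads were counted for each gene. Where exons overlap, counts therefore cannot be told apart from the neighbour's, but a shared span need not mean shared exons. In 1 pair of called genes with overlapping spans, KRTAP5-2 had counts of 1 and 1 in the cytosolic fraction and of 43 and 11 in PFA replicates 1 and 2. Its neighbour KRTAP5-AS1 had 9 and 1 against 70 and 23. KRTAP5-AS1's log2 difference of 3.76 was 5.54 without cytosolic replicate 1 and 3.14 without cytosolic replicate 2.

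Of 485 tested zinc finger genes, which encode the largest family of human transcription factors, 8 were called higher and 0 lower, beside 0.527% higher and 0.145% lower of all genes. Their median was 0.34 (0.27 in PFA replicate 1 and 0.35 in PFA replicate 2), against 0.08 over all genes. The largest of the 8 was the pseudogene ZNF767P, at 7.09 and 8.04 CPM in the cytosolic fraction and at 35.5 and 40.8 CPM in PFA lamina (2.33, SE 0.34, edgeR adjusted p = 0.0312). ZNF398, the smallest, was at 36.0 and 38.9 against 97.4 and 104 CPM. ZNF594 rose by 2.02 with all libraries and by 2.85 without cytosolic replicate 1. The other five were ZNF34, ZKSCAN4, ZNF550, ZNF23 and ZNF76, with log2 differences from 1.44 to 2.26. In PFA replicate 2, 36 of the 485 were higher and 4 lower, a share of higher genes under the 10.6% of all genes.

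Heat shock genes encode chaperones that hold and refold proteins, and heat shock factor 1 drives their transcription from heat shock elements. Of 11 tested, 4 were called lower in PFA lamina and none higher, and the list median was -1.35 (-1.18 in PFA replicate 1 and -1.54 in PFA replicate 2). To show where such elements lie, the 250 bases before the start of 3 of the 4 called genes are given here from RefSeq on GRCh38.p14, with each match to GAANNTTC or TTCNNGAA in capitals. Adjacent matches join into 1 run of capitals.
HSPA1A (chr6:31815293-31815542, plus strand): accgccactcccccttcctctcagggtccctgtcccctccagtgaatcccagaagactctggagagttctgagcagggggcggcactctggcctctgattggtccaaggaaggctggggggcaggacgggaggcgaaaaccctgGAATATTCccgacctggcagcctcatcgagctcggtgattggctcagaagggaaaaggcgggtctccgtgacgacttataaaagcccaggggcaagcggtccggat
HSPA1B (chr6:31827488-31827737, plus strand): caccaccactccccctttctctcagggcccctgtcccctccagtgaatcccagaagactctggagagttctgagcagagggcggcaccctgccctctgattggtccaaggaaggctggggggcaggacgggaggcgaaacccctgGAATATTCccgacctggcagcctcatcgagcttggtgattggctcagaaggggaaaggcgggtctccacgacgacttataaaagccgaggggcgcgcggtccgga
HSPA8 (chr11:123062137-123062386, minus strand): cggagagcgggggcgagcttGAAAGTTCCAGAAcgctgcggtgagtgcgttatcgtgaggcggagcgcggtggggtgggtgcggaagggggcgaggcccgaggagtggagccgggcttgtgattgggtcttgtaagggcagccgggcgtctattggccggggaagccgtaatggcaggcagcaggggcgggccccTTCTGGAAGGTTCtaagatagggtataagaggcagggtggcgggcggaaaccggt
Both strands were searched, and 11.7% of the 27305 promoters in the table hold a match. HSPA1A and HSPA1B hold 1 match each, HSPA8 holds 4, and DNAJB1 holds none. Of the 11 heat shock genes, 4 hold a match. A match is a description of letters in this window, not a measured site.

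HSPA1A, the inducible chaperone HSP70, was at 750.1 and 464 CPM in the cytosolic libraries and at 135 and 75.0 CPM in PFA replicates 1 and 2. Its log2 difference was -2.53 (SE 0.38, edgeR adjusted p = 0.0312). HSPA1B, its near-identical copy, was at 678 and 441 against 123.1 and 88.3 CPM, and counts of the pair, which lie on several contigs of the build, cannot be told apart. The constitutive HSPA8 was at 1174 and 1032 against 374 and 302 CPM (-1.71, SE 0.31, edgeR adjusted p = 0.0407). DNAJB1, a co-chaperone of HSP70, was at 165 and 187 against 69.5 and 61.8 CPM (-1.42). In the nuclear fraction too these 4 genes were below both cytosolic libraries, with HSPA1A at 156 and 99.3 CPM there. HSPH1, an HSP110 chaperone, did not follow: it was at 175 and 138 CPM in the cytosolic fraction and at 245 and 114 CPM in PFA lamina, with a log2 difference of 0.20 (edgeR adjusted p = 0.768). HSP90AB1 (-1.35) and HSP90AA1 (-1.12) did not pass in the pooled comparison. In PFA replicate 2, 8 of the 11 were lower, beside 6.03% of all genes. In these bulk preparations, fewer cells with an RNA, less of it per cell and less of it taken up by the preparation cannot be told apart.

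Low oxygen stabilises hypoxia-inducible factors, which bind ACGTG and turn on glycolysis, among other genes, while EGLN prolyl hydroxylases mark those factors for breakdown. Of 25 tested low-oxygen response genes, 3 were called lower in PFA lamina (NDRG1, EGLN1, EGLN3), and of 20 glycolysis genes, 3 (ALDOC, HK1, HK2), with none higher in either list. The promoters of the 3 of these that hold ACGTG on either strand are shown for the position of the matches, in capitals, in the 250 bases before the start (RefSeq, GRCh38.p14).
EGLN1 (chr1:231422288-231422537, minus strand): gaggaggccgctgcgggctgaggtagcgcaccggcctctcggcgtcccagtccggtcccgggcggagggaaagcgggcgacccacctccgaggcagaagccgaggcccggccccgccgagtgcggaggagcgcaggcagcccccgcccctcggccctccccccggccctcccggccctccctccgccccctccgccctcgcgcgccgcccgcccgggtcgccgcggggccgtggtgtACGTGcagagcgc
HK2 (chr2:74833877-74834126, plus strand): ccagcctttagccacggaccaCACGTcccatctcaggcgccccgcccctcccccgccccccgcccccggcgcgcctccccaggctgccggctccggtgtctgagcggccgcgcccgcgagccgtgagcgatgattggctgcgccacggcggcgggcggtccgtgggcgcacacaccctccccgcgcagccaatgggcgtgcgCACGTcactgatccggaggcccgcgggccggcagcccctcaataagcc
ALDOC (chr17:28576896-28577145, minus strand): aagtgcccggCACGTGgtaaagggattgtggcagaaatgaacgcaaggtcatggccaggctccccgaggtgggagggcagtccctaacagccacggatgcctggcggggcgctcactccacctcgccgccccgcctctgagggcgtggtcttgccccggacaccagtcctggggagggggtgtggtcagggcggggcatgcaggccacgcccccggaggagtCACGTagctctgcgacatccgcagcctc
Of all promoters 18.7% hold ACGTG, and of the 38 genes of both lists with a promoter in the table, 19 do. EGLN3 and HK1 have none in this window, and the promoter of NDRG1 was not analysed here.

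NDRG1, a stress-responsive protein strongly induced in low oxygen, was at 519 and 1243 CPM in the cytosolic libraries and at 101 and 87.9 CPM in PFA lamina. The cytosolic libraries differed from each other more than the PFA libraries did. The log2 difference of NDRG1 was -3.22 (SE 0.63, edgeR adjusted p = 0.0471), and -2.47 without cytosolic replicate 2. EGLN1 was at 153 and 163 against 61.9 and 43.4 CPM and EGLN3 at 38.5 and 33.8 against 12.9 and 11 CPM, each with a log2 difference of -1.58. VEGFA, the vascular growth factor and another low-oxygen gene, was at 40.0 and 50.3 against 35.7 and 37.2 CPM and did not pass (-0.31, edgeR adjusted p = 0.678). In the nuclear libraries NDRG1 (156 and 345.5 CPM), EGLN1 and EGLN3 were also below both cytosolic libraries. The list median was -1.25, with -1.35 in PFA replicate 1 and -1.18 in PFA replicate 2.

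All 20 glycolysis genes had negative log2 differences in the pooled comparison and in each PFA library, with medians of -1.37, -1.25 and -1.79. The summed level of the list was 11810 and 19976 CPM in the cytosolic libraries and 6399 and 3853 CPM in PFA replicates 1 and 2. It was also below the cytosolic libraries in the nuclear (2953 and 4949 CPM) and native lamina libraries (4781 and 5681 CPM). ALDOC, an aldolase, was at 66.8 and 156 CPM in the cytosolic libraries and at 15.0 and 18.8 CPM in PFA lamina, a log2 difference of -2.73 (SE 0.47, edgeR adjusted p = 0.0362) and -2.01 without cytosolic replicate 2. HK2 and HK1, the hexokinases of the first step, were at 216 and 432 against 87.4 and 60.3 CPM and at 195 and 221 against 90.7 and 73.2 CPM. Of the more abundant genes, GAPDH was at 1972 and 4959.6 against 1022 and 557 CPM, and LDHA, lactate dehydrogenase, at 999.5 and 1458 against 365 and 108 CPM. Neither passed with both PFA libraries pooled (edgeR adjusted p = 0.0711 and 0.0530), and both were lower in PFA replicate 2 tested by itself. There 16 of the 20 were called lower, beside 6.03% of all genes. As with NDRG1, cytosolic replicate 2 held the highest level of ALDOC, HK2, GAPDH and LDHA.

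Metallothioneins bind zinc and copper, and their genes are switched on through metal response elements. Of 3 tested, MT1X was called lower. The 250 bases before its start are shown because they hold 4 matches to TGCACNC or TGCGCNC on either strand, in capitals (RefSeq, GRCh38.p14), a motif that 24.7% of all promoters hold.
MT1X (chr16:56682220-56682469, plus strand): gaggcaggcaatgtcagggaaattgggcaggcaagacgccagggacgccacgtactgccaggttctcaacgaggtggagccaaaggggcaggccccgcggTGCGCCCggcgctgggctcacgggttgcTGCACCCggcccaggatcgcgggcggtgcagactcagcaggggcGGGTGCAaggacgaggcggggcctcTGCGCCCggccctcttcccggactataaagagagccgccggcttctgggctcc
MT1X was at 24.6 and 30.4 CPM in the cytosolic libraries (counts of 184 and 144) and at 4.25 and 1.47 CPM in PFA replicates 1 and 2 (counts of 23 and 4). Its log2 difference was -3.15 (SE 0.56, edgeR adjusted p = 0.0405), and -4.26 without PFA replicate 1. MT1X was also low in the nuclear (2.65 and 6.87 CPM) and native lamina libraries (1.46 and 1.92 CPM). MT2A was at 25.3 and 21.6 against 8.32 and 4.05 CPM and did not pass in the pooled comparison (edgeR adjusted p = 0.0684). MT1F was at 2.27 and 1.48 CPM in the cytosolic libraries and at 1.85 CPM in PFA replicate 1, and its count of 0 in PFA replicate 2 allows up to 1.10 CPM.

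Other called lower genes were VIM, EEF1A1, TMSB10, CDK1, S100A10, SMS, SNORA53 and HNRNPA1P10. VIM, the intermediate filament vimentin and a HEK293 marker, was at 1276 and 1439 CPM in the cytosolic fraction and at 540.1 and 447 CPM in PFA lamina (-1.46, SE 0.30, edgeR adjusted p = 0.0485). EEF1A1, the elongation factor that brings transfer RNA to the ribosome, was at 614 and 998 against 273 and 245 CPM, the only one called of 48 translation factor genes. TMSB10, an actin-binding thymosin, was at 200.4 and 239.6 against 69.1 and 40.8 CPM. CDK1, the kinase of mitotic entry, was at 141 and 162 against 45.8 and 50.8 CPM, while none of the 19 listed mitosis genes was called. S100A10, a partner of annexin A2, and SMS, spermine synthase, both had log2 differences of -2.08, which became -2.96 and -2.84 without PFA replicate 1. ACTB, at 2157 and 2099 against 1244 and 748 CPM, did not pass in the pooled comparison (edgeR adjusted p = 0.108). SNORA53, a box H/ACA small nucleolar RNA, was at 71.0 and 68.5 against 24.9 and 28.3 CPM, and at 122.8 and 122.2 CPM in the nuclear fraction. HNRNPA1P10 (-1.67) overlaps HNRNPA1 by gene span, so reads in any exon they share cannot be told apart. In the nuclear libraries VIM, EEF1A1, TMSB10, CDK1, S100A10, SMS and HNRNPA1P10 were also below both cytosolic libraries, while SNORA53 was above them.

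**Figure D2:**
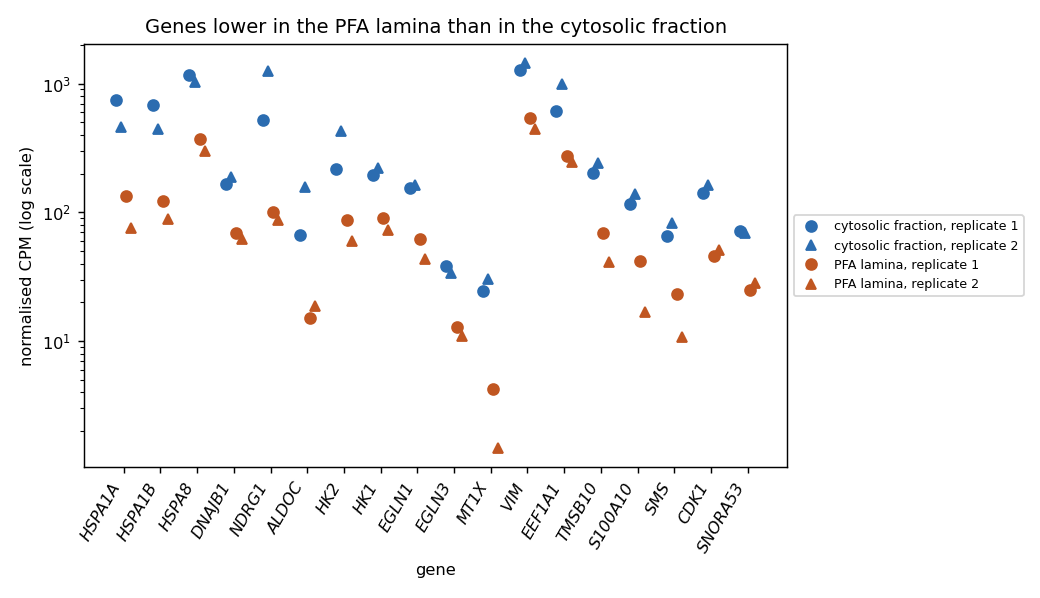
Normalised CPM on a log axis for 18 genes called lower in PFA lamina, 1 point per library (blue cytosolic, orange PFA, circles replicate 1, triangles replicate 2). Both PFA points lie below both cytosolic points in each gene, and the cytosolic replicates of NDRG1 and ALDOC are spread apart.

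Lists of messages known to be translated in the cytoplasm had lower medians in PFA replicate 2 than in PFA replicate 1. Over all genes tested, 6.03% were called lower in PFA replicate 2 and none in PFA replicate 1. The lack of calls in PFA replicate 1 is therefore not particular to these lists. The 82 tested ribosomal protein genes had 0 calls in the pooled comparison, with a median of -1.0. The summed level of the list was 22637 and 32869 CPM in the cytosolic libraries, 16138 CPM in PFA replicate 1 and 10756 CPM in PFA replicate 2. The nuclear libraries held 5764 and 9032 CPM. The list median was -0.77 in PFA replicate 1, where none was called, and -1.34 in PFA replicate 2, where 50 of 82 were lower and none higher. Oxidative phosphorylation subunits had medians of -0.43 and -1.27, with 35 of 78 lower in PFA replicate 2. Mitochondrial ribosomal protein genes were at -0.04 in PFA replicate 1, a value that reached 0.00 with upper-quartile factors, and at -0.93 in PFA replicate 2, where 17 of 78 were lower. Replication-dependent histone genes, whose RNAs lack a poly(A) tail, had medians of -0.35 and -1.24, with 22 of 46 lower in PFA replicate 2. Proteasome subunits had medians of -0.13 and -0.92, with 12 of 36 lower. No member of these 5 lists was called in the direct comparison of PFA replicate 2 with PFA replicate 1.

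Long non-coding lists had positive medians in PFA replicate 2, where 10.6% of all genes were called higher and 6.03% lower. Of 207 tested LINC RNAs, 39 were higher and 1 lower there, with a median of 1.10 (1.01 with genes at 0 set to the floor), against 0.15 in PFA replicate 1. Of 584 antisense RNAs, 81 were higher and 3 lower in PFA replicate 2, with a median of 0.78, against 0.14 in PFA replicate 1. Their summed level did not rise: it was 4637.5 and 5146 CPM in the cytosolic libraries and 4574 and 5028 CPM in PFA replicates 1 and 2. That of the LINC RNAs was 934 and 828 against 980 and 1281 CPM. Of 9 tested RNAs on a list drawn up as nuclear long RNAs, not all confined to the nucleus, 5 were higher and 1, OIP5-AS1, lower in PFA replicate 2. The list medians were 1.71 and -0.57 in PFA replicates 2 and 1. MALAT1, a nuclear speckle RNA, was at 795 and 974 CPM in the cytosolic libraries, at 595 CPM in PFA replicate 1 and at 3079 CPM in PFA replicate 2, against 10962 and 16522 CPM in the nuclear fraction. NEAT1, the RNA of paraspeckles, was at 156 and 301 CPM in the cytosolic libraries, at 106 CPM in PFA replicate 1 and at 745 CPM in PFA replicate 2. PFA replicate 1 was thus below the cytosolic libraries for both RNAs and PFA replicate 2 above them. The pooled log2 differences of 1.05 (MALAT1) and 0.89 (NEAT1) did not pass the test and turned to -0.57 and -1.10 without PFA replicate 2. TUG1, also nuclear in part, was level, with 169.8 and 152 CPM in the cytosolic libraries and 158 and 166 CPM in the PFA libraries.

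In the direct comparison of the PFA libraries, 191 genes (1.16% of those tested) were higher in replicate 2 than in replicate 1 and 14 (0.0848%) lower (edgeR quasi-likelihood test, adjusted p under 0.05). KCNQ1OT1, the long RNA of the imprinted KCNQ1 locus, was at 10.3 CPM in PFA replicate 1 and at 282 CPM in PFA replicate 2. The cytosolic fraction held 18.7 and 20.9 CPM of it and the nuclear fraction 942 and 1194 CPM. Its model has 91671 exonic bases and strand was ignored. Reads of any other transcript from that stretch, on either strand, therefore cannot be told apart from its own. The PFA libraries differed by 4.77 on the log2 scale (edgeR adjusted p = 0.000381), from counts of 56 and 767. IL12RB2, a receptor chain of interleukin 12, had counts of 3 and 57, a ratio of 37.8 in CPM with a 95% counting interval of 12.3 to 189. Its nuclear levels were 46.8 and 55.0 CPM. SLFNL1 (4.98), SNX32 (4.93), ACPT (4.93) and BICDL2 (4.74) were the next in size and had 4 or 5 counts in PFA replicate 1. MIR17HG, host of the miR-17-92 cluster, was at 1.85 and 25.0 CPM in PFA replicates 1 and 2, with 6.02 and 16.3 CPM in the cytosolic and 120.3 and 204 CPM in the nuclear libraries. In each of KCNQ1OT1, IL12RB2 and MIR17HG the nuclear libraries were the highest and PFA replicate 1 lay below both cytosolic libraries. For IL12RB2 the latter rests on a count of 3, the floor, against cytosolic counts of 6 and 7.

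The 14 genes lower in PFA replicate 2 than in PFA replicate 1 had a median exonic length of 1404 bases, against 3161 for all genes tested. SEC61G, the gamma subunit of the translocon, was at 14.4 CPM in PFA replicate 1 and at 1.84 CPM in PFA replicate 2 (log2 difference -2.96, edgeR adjusted p = 0.049). HIGD1A, a mitochondrial protein induced in low oxygen, was at 51.7 and 12.9 CPM, and METTL5, a ribosomal RNA methyltransferase, at 25.9 and 5.89 CPM. RSL1D1, a nucleolar protein of ribosome assembly, was at 217 CPM in PFA replicate 1, near the 185 and 215 CPM of the cytosolic libraries, and at 54.8 CPM in PFA replicate 2. CDR1 was at 205 and 37.2 CPM, and its reads cannot be told apart from those of its antisense circular RNA. For RWDD1, PFA replicate 1 (26.4 CPM) lay above the cytosolic libraries (12.2 and 16.1 CPM) and PFA replicate 2 (5.52 CPM) below them. Among these 6 genes, SEC61G, HIGD1A, METTL5 and RWDD1 lost their call with total counts.

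**Figure D3:**
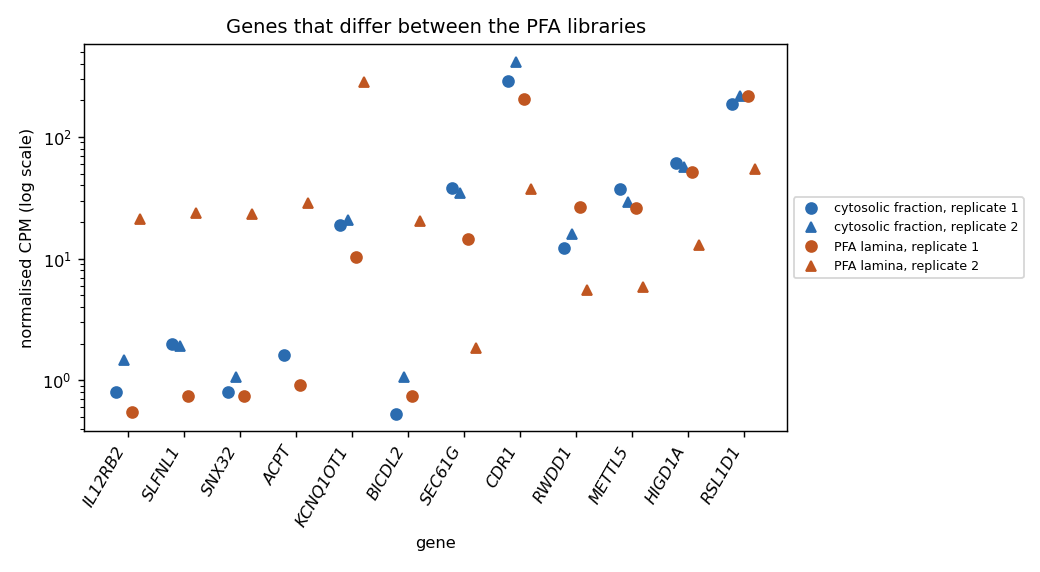
Normalised CPM on a log axis for the 6 genes with the largest increase and the 6 with the largest decrease from PFA replicate 1 to PFA replicate 2, 1 point per library, with the cytosolic libraries beside them. ACPT has 0 counts in cytosolic replicate 2, and that point is not drawn. The increased genes sit between 20.2 and 282 CPM in PFA replicate 2 and at 0.554 to 10.3 CPM in PFA replicate 1.

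The contrast of the nuclear with the cytosolic fraction holds no PFA library. In it, 30.4% of all tested genes were called higher in the nuclear fraction and 24.2% higher in the cytosolic fraction (edgeR, adjusted p under 0.05), with a median log2 difference of 0.13. Of the 191 genes higher in PFA replicate 2 than in PFA replicate 1, 189 (99%) were higher in the nuclear fraction and 0 in the cytosolic one, with log2 differences from 0.49 to 9.44 and a median of 3.73. Of the 14 lower genes, 11 (78.6%) were higher in the cytosolic fraction and 0 in the nuclear one, with a median of -1.64. Some of the 191 genes, such as IL12RB2 and SLFNL1, were low in the cytosolic libraries and PFA replicate 1 and passed the filter on low counts through the nuclear libraries and others where they were high, which bears on these shares. With at least 10 counts required in every library, 56 genes were higher in PFA replicate 2 and 4 lower. Of the 56, all 56 were higher in the nuclear fraction (26.3% of the 12381 genes in that fit were), and of the 4, 3 were higher in the cytosolic one (24.6%). Whether the preparations held different amounts of nuclear and cytosolic RNA was not tested.

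PFA replicate 2 also held counts from more genes. With each library thinned to 2321291 counts, the total of PFA replicate 2, the cytosolic libraries had a count for 16844 and 16010 genes, PFA replicate 1 for 17004 and PFA replicate 2 for 19652. The nuclear libraries had 19935 and 19376. Outside ribosomal RNA and LMNB1, long non-coding RNAs took 1.75% and 1.76% of cytosolic counts, 1.93% of those of PFA replicate 1, 2.89% of those of PFA replicate 2, and 5.21% and 6.13% of nuclear counts. The native lamina libraries had a count for 18495 and 18344 genes, and long non-coding shares of 2.75% and 3.72%, on either side of that of PFA replicate 2. On both measures PFA replicate 1 was nearer to the cytosolic libraries than PFA replicate 2 was. Rows of ribosomal RNA took 21.4% and 31.2% of cytosolic counts, 27.2% of PFA replicate 1 and 13.5% of PFA replicate 2, and their part in these differences was not tested.

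**Figure D4:**
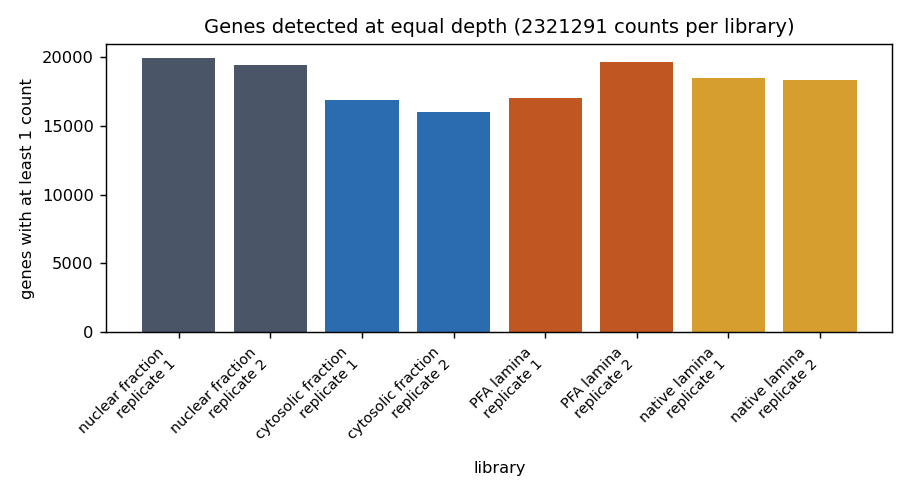
Genes with at least 1 count when each library is thinned to 2321291 counts, 1 bar per library on an axis from 0. PFA replicate 2, at 19652, stands with the nuclear libraries (19935 and 19376), and PFA replicate 1, at 17004, near the cytosolic ones (16844 and 16010). The native lamina libraries, at 18495 and 18344, lie between the PFA libraries.

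Box C/D small nucleolar RNAs, which guide methylation of ribosomal RNA, had a median of -0.55 in PFA replicate 1 and of 1.27 in PFA replicate 2 (-0.35 and 1.17 with genes at 0 set to the floor), and of 128 tested, 12 were higher and 3 lower in PFA replicate 2, where 10.6% of all genes were higher and 6.03% lower. The summed level of the box C/D list did not rise with that median. It was 999.8 and 1308 CPM in the cytosolic libraries and 766 and 755 CPM in PFA replicates 1 and 2. Box H/ACA and Cajal body RNAs, which guide pseudouridylation, had medians of 0.35 and -0.30, with 5 of 130 higher and 11 lower in PFA replicate 2. The value of -0.30 turned to 0.03 with total counts, and relative to all genes it was -0.37 and -0.39. Of 6 spliceosomal small nuclear RNAs, 3 were lower in PFA replicate 2, where their median was -2.27. By exonic length, PFA replicate 2 had 28 genes called higher and 18 lower of 387 under 300 bases, 62 called higher and 159 lower of 992 with at least 300 and under 1000 bases, against 976 higher and 316 lower of 8740 of 3000 bases or more. Genes lower in PFA replicate 2 than in the cytosolic fraction had a median exonic length of 2133.5 bases, and those higher 3266, beside 3161 for all genes tested.

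The native lamina and nuclear libraries share none with the comparison of PFA lamina and cytosol, and of the 87 higher genes 3 were also called higher in native lamina than in the nuclear fraction (3.87% of all genes were) and 4 lower (3.44%). Both shares were near those of all genes. The 3 were LMNB1 (3.93, edgeR adjusted p = 0.0100), ANKRD1 (2.61, 0.0137) and ARRDC3 (2.20, 0.00397). ANKRD1 was at 43.7 and 18.3 CPM in native lamina against 4.51 and 5.67 CPM in the nuclear fraction, and ARRDC3 at 121 and 125 against 32.1 and 21.1 CPM. Of the 24 lower genes, 1 was higher in native lamina than in the nuclear fraction, HSPA1B (1.38), and 1 was lower, SNORA53 (-2.78). Lamina-associated domains listed for HCT116 cells in all 3 stages contained 0 of the 84 higher and 0 of the 22 lower genes placed on 1 chromosome, beside 1.19% of all tested genes, from another cell line and so without a test.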

How the data were processed

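RNA of 8 HEK293FT libraries in 4 groups of 2 was used. The authors deposited whole-number counts for each gene, obtained with featureCounts on hg19 with RefFlat gene models, without regard to strand and with a read counted for every gene it overlaps, per the file headers. The submitters' processing notes name TopHat2 2.1.1, Bowtie2 2.3.2 and Subread 1.5.2. Total counts ran from 2321291 to 7280956 in the 4 libraries compared. Duplicate reads were not told apart by molecular identifiers, so floors and intervals reflect counting error alone.

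The filterByExpr filter by group kept 16504 of 27630 genes, and edgeR 4.0.16 (R 4.3.3) tested them (TMM, quasi-likelihood test, 1 coefficient per group, 4 residual degrees of freedom, Benjamini-Hochberg over all genes tested). A second fit gave each PFA library its own coefficient (3 residual degrees of freedom), the lone library being assumed to vary like the other groups. Both were tested on simulated counts. A count of 3 was the floor. Lists are described by counts and medians, with no list test. DESeq2 1.42.0 was an alternative. In the file of cytosolic replicate 1 the header's output name is that of nuclear replicate 1 and its input name is cytosolic.

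The members and lists were chosen with earlier results of these data known. Genes named are the 12 largest called changes each way between PFA lamina and cytosol and the 6 each way between the PFA libraries (at least 300 exonic bases, 1 chromosome, 50 counts per library in the higher group), called list members, the 3 most abundant members of each list and a set of genes that earlier results had named; others are marked in the text. Promoters were matched by symbol to a RefSeq table (GRCh38.p14, 27472 of 27630 symbols in its gene table). Samples of other assays were not used here, except the HCT116 domain lists.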

Additional observations from a re-analysis of the deposited data

How the results depend on the processing

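All 111 genes called between PFA lamina and cytosol kept their sign where they were tested, under each alternative, while their number depended on the setting. From 87 higher and 24 lower, the counts moved to 35 and 14 with DESeq2 size factors, 988 and 538 with no filter, 236 and 74 with at least 10 counts in every library, 551 and 449 with the DESeq2 Wald test, 34 and 20 in a fit of only the 4 libraries, and 0 and 0 when a 2-fold change was required (929 higher and 126 lower at an unadjusted p under 0.05, edgeR). Leaving out 1 library gave 0 to 1703 higher and 0 to 1166 lower, the highest without PFA replicate 1. For PFA replicate 1 alone, 14 calls became 37 with upper-quartile factors, 422 with no filter, 27 among genes of at least 300 bases, 154 with the Wald test, 0 at 2-fold and 8 to 321 with 1 library left out. For PFA replicate 2, 2739 became 1597 with at least 10 counts, 577 at 2-fold and 1927 to 3325 with 1 library left out. Between the PFA libraries, 205 became 594 with total counts, 332 with upper-quartile factors, 770 with no filter, 60 with at least 10 counts, 16 at 2-fold and 157 to 641 with 1 library left out. Thinning every library to the total of PFA replicate 2, chosen after seeing the data, gave 71 calls there, and leaving out ribosomal RNA rows, also added then, kept the pooled counts at 84 and 25. Without PFA replicate 2, MALAT1 (-0.57), NEAT1 (-1.10) and RPPH1 (0.05) changed sign, and without PFA replicate 1 they stood at 1.75, 1.66 and -0.89. The cause was not tested. Total counts moved the median of all genes by 0.17 and upper-quartile factors by 0.11 on the log2 scale.

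With the replicate number as a block, 279 genes were higher and 125 lower between PFA lamina and cytosol, 102 were called in PFA replicate 1 and 119 between the PFA libraries. Deviations of same-numbered cytosolic and PFA libraries correlated at -0.067, and over all 6 pairs of groups the correlations ran from -0.067 to 0.321 (PFA and native lamina), with 0.28 for the nuclear and cytosolic fractions. No label says that a number marks a shared culture or day and the groups compared did not deviate together, so the numbers were not taken as pairs. The depth of PFA replicate 2, where the floor is 1.10 CPM, limits what can be seen of weakly expressed genes.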

Other observations

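Other lists had few or no called members between PFA lamina and cytosol. None of 20 immediate early genes passed, and their median was -0.84 in PFA replicate 1 and -0.26 in PFA replicate 2, the latter turning to 0.14 with total counts (-0.33 and -0.27 relative to all genes). Of 15 oxidative stress response genes, 0 passed in the pooled comparison and 4 were lower in PFA replicate 2, where 6.03% of all genes were. None of 22 cholesterol synthesis and uptake genes was called in any of these comparisons. RNAs made by RNA polymerase III were abundant in the cytosolic and PFA libraries: RPPH1, the RNA of ribonuclease P, was at 13499 and 16352 CPM in the cytosolic fraction, 15485 CPM in PFA replicate 1 and 8360.5 CPM in PFA replicate 2, against 718 and 1244 CPM in the nuclear fraction. RMRP, the RNA of ribonuclease MRP, was at 6615 and 8926 against 7263 and 6158 CPM, with overlapping groups. Neither differed from the cytosolic fraction by edgeR's test (adjusted p = 0.748 and 0.834).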
